A study of Mus musculus with 34 samples.

Results

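The RGK proteins Rem1, Rem2, Rrad (also called Rad) and Gem are a small branch of the Ras family of GTPases. They were followed in sensory neurons after nerve injury, with and without the transcription factor ATF3. The members were the rows of the deposited count table whose Ensembl ID maps to the symbols Rem1, Rem2, Rrad and Gem, which gave 4 of the 48795 genes in the table. RNA was counted in neuron-enriched cells of lumbar dorsal root ganglia, the clusters of sensory neuron bodies beside the spinal cord, 3 days after the sciatic nerve was crushed on one side. The other side of each mouse was the naive side, so 17 mice of 8 to 12 weeks gave 34 libraries.

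In the 8 ATF3 cKO mice (5 females and 3 males) both Atf3 copies were floxed at exon 3, and Cre from the advillin locus, which is active in sensory neurons, removes that exon. Other cell types of the ganglion keep an intact Atf3. The 9 ATF3 wt controls (6 females and 3 males) were of mixed make-up: 3 carried Cre with wild-type Atf3, 2 had wild-type Atf3 and no Cre, and 4 had 1 floxed copy without Cre. The 3 that carried Cre were the 3 males, so sex and Cre cannot be told apart among the controls. By the labels all 5 cKO females carried Cre and the 6 control females did not. Among females ATF3 genotype and Cre therefore cannot be told apart, and the part of Cre in the genotype comparisons was not tested. The groups were thus 9 naive and 9 injured libraries of wt and 8 of each side of cKO, named below by genotype and animal number, as in wt-176.

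RGK proteins bind the beta subunits of high-voltage-activated calcium channels and lower the current through them, so a cell with more RGK protein lets in less calcium through those channels. They also bind calmodulin and 14-3-3 proteins, and they lack the lipid anchor that holds most Ras proteins at the membrane. Rem2 is the member best known from neurons, where it takes part in synapse and dendrite growth and binds CaMKII. Gem is switched on quickly by many stimuli and also acts on the cytoskeleton. Rrad was first found in muscle and Rem1 is best known from the heart.

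Library totals ran from 35732193 to 77632944 counts, and levels are in CPM, counts scaled to the TMM-adjusted library total. Of the marker lists, that of sensory neurons had the highest sum: its 10 genes summed to between 6941 and 13210 CPM in the 34 libraries. Other cell types were present too. The 10 satellite glia markers summed to between 932 and 2566 CPM and the 10 of myelinating Schwann cells to between 460 and 816 CPM. Neutrophil and fibroblast sums reached 995 and 799 CPM. The 12 macrophage markers summed to between 3.98 and 71.2 CPM and the 10 of pericytes and smooth muscle to between 76.8 and 202 CPM. Atf3 itself was counted at 125 ± 30.8 (SD, n = 9) and 364 ± 145 CPM (n = 9) in naive and injured wt libraries and at 119 ± 25.6 and 264 ± 59.6 CPM (n = 8 each) in naive and injured cKO libraries. That count covers the whole gene and does not check the loss of exon 3. In 2 mice Avil, the gene whose locus drives Cre, lay outside the range of the other mice with the same Cre label. Among the other mice it spanned 432 to 556 CPM in 20 libraries with Cre by the label, and 793 to 1036 CPM in 10 without. It was at 83.4 and 88.8 CPM in cKO-131 and, although the label gives wt-150 no Cre, at 499 and 517 CPM in wt-150. The injury effects and genotype differences of Rem2 are therefore also given without these mice. Between 2.14% and 9.42% of counts fell in 3 genes that carry ribosomal RNA sequence (here the ribosomal spacer share), by which 6 mice were low and 11 high. Because these are bulk samples, fewer cells of a type and less RNA per cell cannot be told apart.

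Rem2 (ENSMUSG00000022176) lies on chromosome 14, 54476100 to 54480431 on the plus strand of GRCm38, with 2251 bases of merged exons. Its upstream sequence is shown because Rem2 is the member whose RNA changed in the unpaired test. These are the 250 bases before the RefSeq start site, chr14:54475850-54476099 of GRCm38.p6, plus strand.
Rem2: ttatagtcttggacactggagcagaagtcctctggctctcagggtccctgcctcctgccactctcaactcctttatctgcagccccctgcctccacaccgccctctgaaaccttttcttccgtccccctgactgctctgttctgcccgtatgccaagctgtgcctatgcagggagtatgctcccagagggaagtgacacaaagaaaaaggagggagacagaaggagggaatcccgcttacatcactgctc
ATF3 is known to bind, with its dimer partners, the AP-1 site (TGANTCA) and the cyclic AMP response element (TGACGTCA). Neither motif was present on either strand of this window, so no base is in capitals. The AP-1 letters were present in the same 250 bases of 6.75% of the 32851 RefSeq promoters and those of the response element in 1.55%. The window was 55.6% GC, against a median of 52.4% over these promoters. Of the members, the RefSeq table held Rem1 and Rem2, and the Rem1 window had no match to either motif.

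Rem2 RNA fell after injury in both genotypes and was the only member to pass the unpaired test in either. In wt naive libraries Rem2 ran from 9.68 CPM in wt-141 through a median of 13.5 to 18.6 CPM in wt-195. In wt injured libraries it ran from 2.09 CPM in wt-176 through a median of 6.33 to 9.24 CPM in wt-155. The highest injured library was thus below the lowest naive one, and the wt groups did not overlap. The share of all genes without such overlap is not given here, so this does not set Rem2 apart from other genes. The group means were 13.5 ± 2.90 CPM naive and 6.44 ± 2.22 CPM injured (SD, n = 9 each). The log2 fold change was -1.07 (SE 0.16, 95% interval -1.40 to -0.74, adjusted p = 5.62e-06 by the edgeR quasi-likelihood F-test over 19565 genes). In that comparison 12.7% of all tested genes were called lower, and Rem2 was 1 of the 3 members that could be tested.

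The fall was seen in every wt mouse, but its size differed widely. The log2 injured to naive ratio of Rem2 ran from -2.39 in wt-176 through a median of -1.09 to -0.38 in wt-155, lower in 9 of 9 mice. The wt-176 injured library had 65 Rem2 counts and the smallest total of all libraries, 35732193 counts. Without wt-176 the log2 fold change was -0.98 (adjusted p = 1.71e-06), and without wt-150, whose Avil level went against its label, it was -1.07 (adjusted p = 1.80e-05). It was -1.14 in females and -0.97 in males, and -0.97 in the low and -1.13 in the high ribosomal spacer mice, and each of these fits passed, with adjusted p between 0.00124 and 0.0315. Among the 1961 genes that fell in wt and averaged at least 5 CPM, Rem2 had the third largest fall, and among all 2494 that fell it ranked 30.

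In cKO mice Rem2 fell as well. Naive cKO libraries ran from 8.82 CPM in cKO-131 through a median of 13.0 to 16.0 CPM in cKO-156. Injured cKO libraries ran from 4.87 CPM in cKO-130 through a median of 8.58 to 10.5 CPM in cKO-194. These ranges overlapped: 4 of the 8 injured libraries lay above the lowest naive one, cKO-131. The means were 12.6 ± 2.13 and 8.30 ± 1.90 CPM (SD, n = 8 each). The log2 fold change was -0.61 (SE 0.17, 95% interval -0.95 to -0.27, adjusted p = 0.0377 by edgeR), in a comparison where 0.583% of all genes were called lower. All 8 cKO mice had less Rem2 on the injured side, with log2 ratios from -1.23 in cKO-130 through a median of -0.46 to -0.21 in cKO-131.

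**Figure D1:**
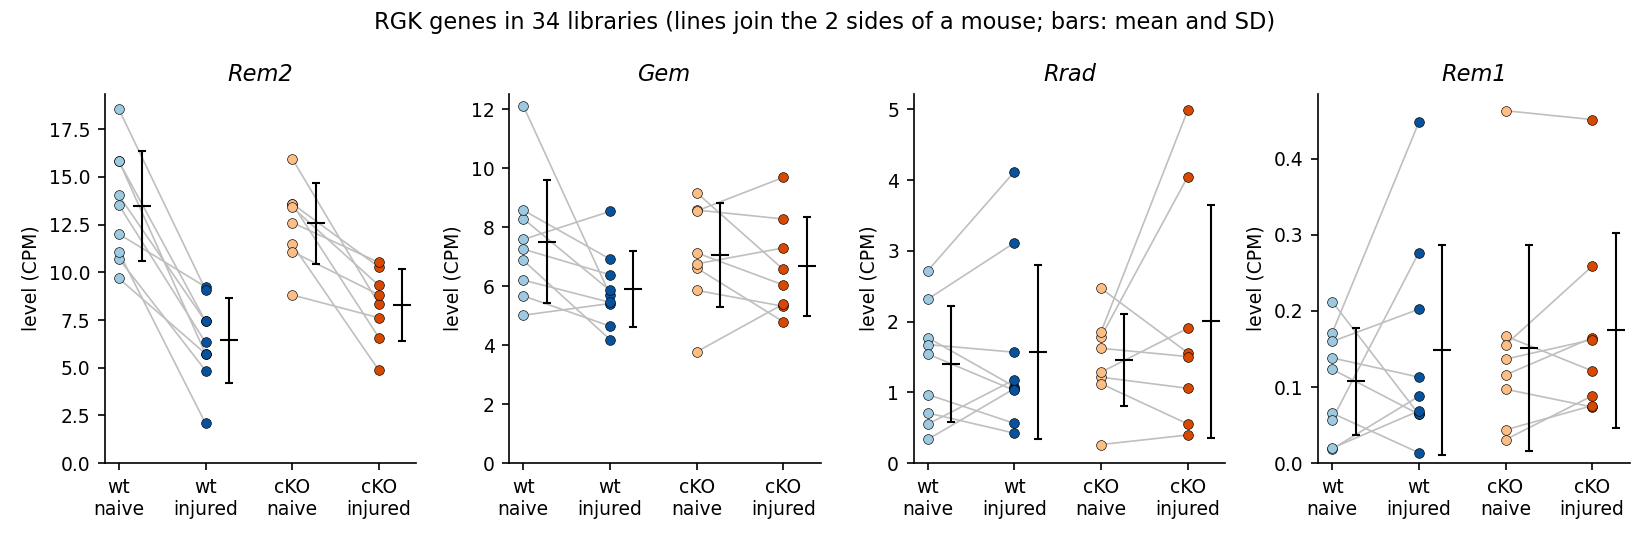
Level of each RGK gene in CPM (y axis, linear, from 0) in the 34 libraries of the 4 groups (x axis); each point is a library, each line joins the naive and injured side of a mouse, and bars give mean and SD. All Rem2 lines slope down, the wt Rem2 groups do not overlap, and the Gem, Rrad and Rem1 groups do.

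The cKO call lay close to the threshold. It held without cKO-131 (log2 fold change -0.66, adjusted p = 0.0356), with DESeq2 (-0.62, adjusted p = 0.0135) and with the mouse as a block (-0.62, adjusted p = 0.0163, in a fit that called 3.62% of all genes lower), but it was lost in edgeR on leaving out any 1 of the 7 cKO mice other than cKO-131, with adjusted p from 0.0504 to 0.155. The fits of females, males, low spacer and high spacer mice alone gave -0.66, -0.55, -0.81 and -0.49, and none of them passed (adjusted p = 0.511, 0.520, 0.0605 and 0.694).

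Whether the Rem2 response differs between genotypes was tested directly. The injury effects differed by 0.46 on the log2 scale, less negative in cKO, with a 95% interval from -0.01 to 0.93 that holds 0 (SE 0.23, adjusted p = 0.400 by edgeR). With the mouse as a block it was 0.49, with an interval from 0.05 to 0.93 that leaves out 0, and it did not pass over all genes either (adjusted p = 0.172 by edgeR). It was 0.17 in low and 0.64 in high ribosomal spacer mice, neither of which passed (adjusted p = 0.866 and 0.692). For this difference 2.84% of all genes were called, and none of the members. On the injured side alone, where 11.1% of all genes were called, Rem2 was higher in cKO by 0.35 (95% interval 0.02 to 0.68), which did not pass (adjusted p = 0.187). Without cKO-131 the difference of injury effects was 0.41 (adjusted p = 0.543) and the injured-side value 0.35 with an interval from -0.0043 to 0.70 (adjusted p = 0.230), and without wt-150 they were 0.46 and 0.40 (adjusted p = 0.424 and 0.136). Injured wt and cKO libraries overlapped, with 7 of 9 wt libraries inside the cKO range. On the naive side the log2 fold change was -0.11 (95% interval -0.44 to 0.22, adjusted p = 1.00), in a comparison where edgeR called 0.0% of all genes, with 506 of 19565 at an unadjusted p under 0.05 and 1 gene called by DESeq2. These comparisons share their libraries, so their values are not independent of one another.

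Lists of injury-response and cell type genes were read in the same libraries. The regeneration-associated list, genes known to be switched on in axon-injured sensory neurons, had 20 of 21 tested members higher in wt and 13 in cKO, where 14.3% and 2.61% of all genes were called higher, and its median log2 fold change was 2.2 in wt and 0.76 in cKO, against 0.02 for all genes in each. The list was chosen with earlier results of these data known, so these counts are a description and no separate result. Of the 10 sensory neuron markers, 5 fell and 1 rose in wt and none passed in cKO, against 12.7% of all genes called lower in wt. Their median log2 fold change in wt was -0.18. The 5 that fell were Rbfox3, Snap25, Isl1, Pou4f1 and Scn9a, by 0.16 to 0.35, and Tubb3 rose by 0.54. The log2 ratio of their summed level had a median of 0.01 in wt (range -0.12 to 0.55), in a sum to which Tubb3 gives 2616 CPM on average, and the part of neuron content in the Rem2 result was not tested. Of the macrophage markers 10 of 12 rose in wt, against 14.3% of all genes, and none passed in cKO, and their part in the Rem2 result was not tested. Their summed level ran from 3.98 to 30.6 CPM in naive wt, 27.6 to 71.2 in injured wt, 13.5 to 45.7 in naive cKO and 15.9 to 70.2 in injured cKO libraries, and none of the 12 was at 0 in any library.

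**Figure D2:**
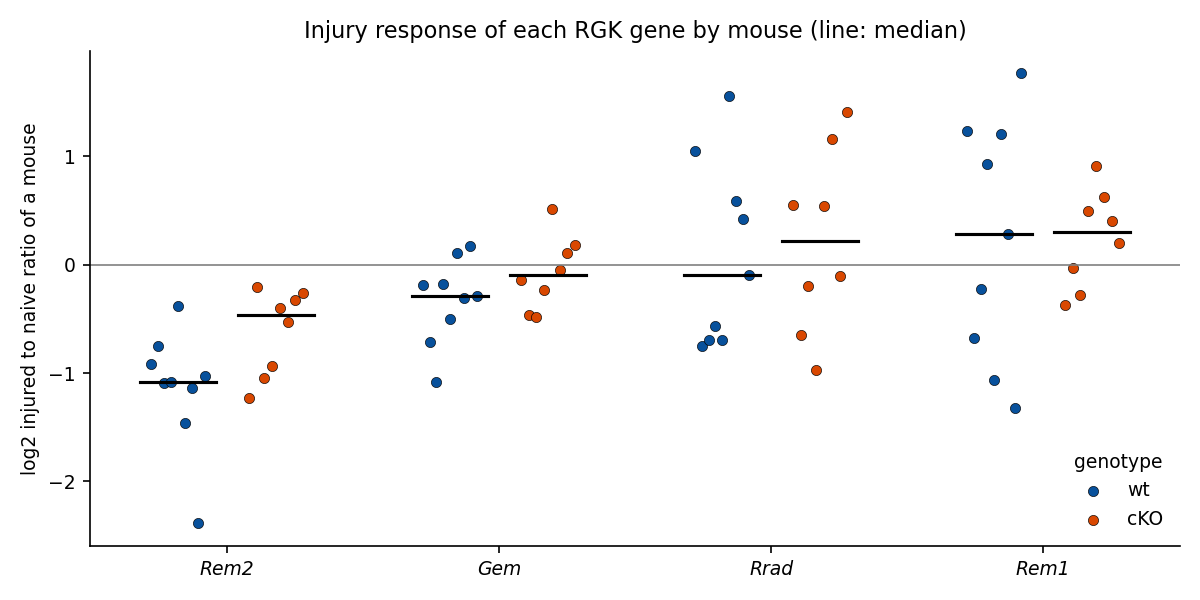
Log2 injured to naive ratio of each RGK gene (y axis) for the 9 wt and 8 cKO mice (points; black lines are medians). All 17 Rem2 points lie below 0, from -2.39 in wt-176 to -0.21 in cKO-131, while the other members lie on both sides of 0.

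Gem (ENSMUSG00000028214, chromosome 4, 11704457 to 11714752, plus strand, 2104 exon bases) stayed within a narrower span and did not pass in any comparison of the unpaired fit. Naive wt libraries ran from 5.02 CPM in wt-172 through a median of 7.26 to 12.1 CPM in wt-146, and injured wt libraries from 4.19 CPM in wt-141 through 5.72 to 8.54 CPM in wt-176. The wt groups overlapped, with 7 of 9 libraries of each inside the range of the other. Naive cKO libraries ran from 3.78 CPM in cKO-163 through a median of 6.95 to 9.17 CPM in cKO-152, and injured ones from 4.80 CPM in cKO-131 through 6.31 to 9.69 CPM in cKO-194, so these overlapped too. The log2 fold change with injury was -0.35 in wt (SE 0.16, 95% interval -0.67 to -0.02, adjusted p = 0.111 by edgeR). In cKO it was -0.07 (95% interval -0.42 to 0.27, adjusted p = 0.932).

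Pairing the sides changed this call. With the mouse as a block, Gem fell in wt by 0.33 on the log2 scale (95% interval -0.57 to -0.09, adjusted p = 0.0249), in a fit that called 20.1% of all genes lower. The level was lower on the injured side in 7 of 9 wt mice, most in wt-146 with a log2 ratio of -1.08, and higher in wt-172 and wt-176. In cKO 5 of 8 mice were lower. The difference of the injury effects was 0.27 (95% interval -0.20 to 0.75, adjusted p = 0.771), and 0.26 with the block (adjusted p = 0.397, with 7.53% of all genes called), so the response was not shown to differ between genotypes. Between genotypes the values were 0.19 on the injured and -0.08 on the naive side, and neither passed (adjusted p = 0.525 and 1.000 by edgeR).

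Rrad (ENSMUSG00000031880, chromosome 8, 104628070 to 104631327, minus strand, 1577 exon bases) was low and varied more between mice than between groups. It ran from 0.26 CPM in the naive cKO-163 library, with 17 counts, to 4.99 CPM in the injured cKO-194 library. The group ranges were 0.33 to 2.72 CPM in naive wt (median 1.54), 0.42 to 4.12 in injured wt (median 1.08), 0.26 to 2.47 in naive cKO (median 1.45) and 0.40 to 4.99 in injured cKO (median 1.53). All 4 ranges overlapped. The log2 fold change with injury was 0.16 in wt (95% interval -0.75 to 1.06, adjusted p = 0.851 by edgeR) and 0.51 in cKO (95% interval -0.45 to 1.47, adjusted p = 0.746).

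Single mice moved Rrad in opposite directions. In wt it was higher on the injured side in 4 of 9 mice and lower in 5, from a log2 ratio of -0.75 in wt-141 to 1.56 in wt-172. In cKO it was higher in 4 of 8 mice, from -0.98 in cKO-156 to 1.41 in cKO-194. Between genotypes the injured side differed by 0.44 (adjusted p = 0.615 by edgeR), which turned to -0.17 without cKO-194, the library with the highest level. An antisense gene, Gm33023, overlaps the exons of Rrad and averaged 1.74 counts a library. No source used here gives the strand setting of the counting, so reads of the overlap cannot be assigned to one of the genes.

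**Figure D3:**
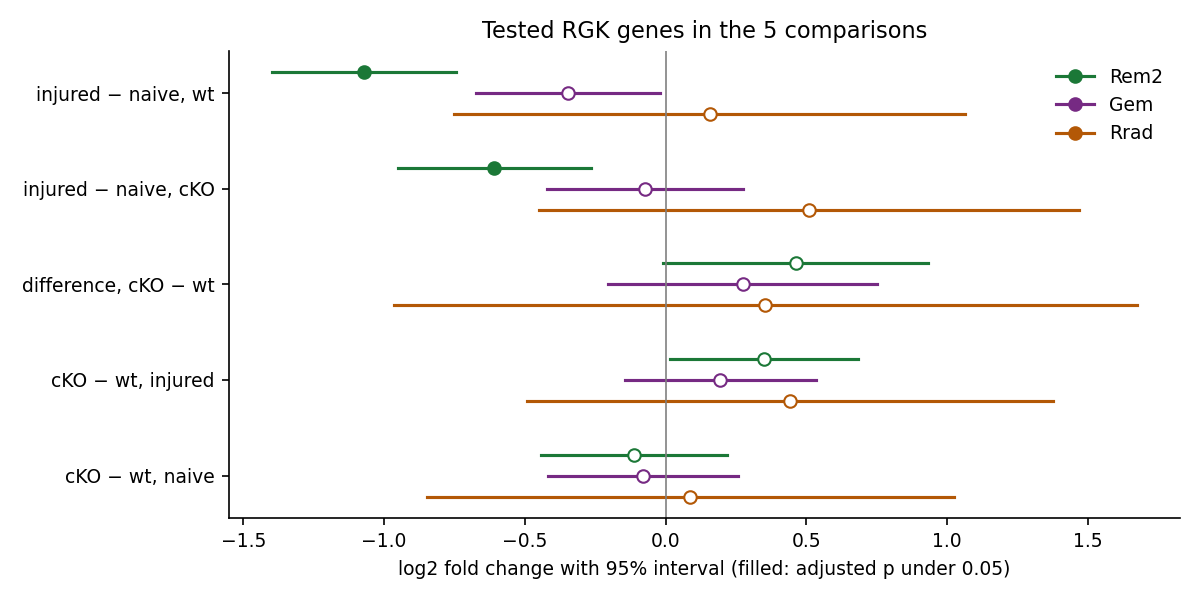
Log2 fold changes (x axis) with 95% intervals of Rem2, Gem and Rrad in the 5 comparisons (y axis); filled points passed an adjusted p of 0.05 in edgeR. Rem2 passed for injury in wt (-1.07) and in cKO (-0.61), its genotype difference of 0.46 did not pass, and Rrad has the widest intervals.

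Rem1 (ENSMUSG00000000359, chromosome 2, 152626951 to 152635198, plus strand, 2156 exon bases) was barely detected. It had 1 to 27 counts in a library and 278 in all 34, with 3 counts or fewer in 7 of them, and it did not pass the filter on low counts. Levels ran from 0.014 CPM in the injured wt-155 library to 0.463 CPM in the naive cKO-131 library, and the injured cKO-131 and wt-139 libraries followed at 0.452 and 0.448 CPM. Medians were 0.124 and 0.0878 CPM in naive and injured wt and 0.126 and 0.142 CPM in naive and injured cKO, and all groups overlapped. Fitted without the filter, Rem1 had a log2 fold change with injury of 0.52 in wt (95% interval -0.43 to 1.48, adjusted p = 0.529 by edgeR) and 0.25 in cKO (adjusted p = 0.953). A change was not detectable at this depth.

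Set against exon length, Gem, Rrad and Rem1 kept their order in every library, and Rem2 and Gem did not. In naive wt libraries Rem2 stood at 5.99 ± 1.29, Gem at 3.57 ± 0.99, Rrad at 0.887 ± 0.518 and Rem1 at 0.0498 ± 0.0323 CPM per kb (SD, n = 9). Rem2 was above Gem in 9 of 9 naive wt and 8 of 8 naive cKO libraries. After injury it was above Gem in only 6 of 9 wt and 6 of 8 cKO libraries, where the levels were 2.86 ± 0.98 against 2.81 ± 0.61 CPM per kb in wt and 3.69 ± 0.85 against 3.17 ± 0.79 CPM per kb in cKO. After injury Rem2 and Gem were therefore closer than their spread. Gem was above Rrad, and Rrad above Rem1, in 34 of 34 libraries, and both orders held in all 34 with the longest transcript as length. Rem2 was above Gem in 29 of 34 libraries by merged exons and in 31 by the longest transcript.

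The genes whose levels followed each member most closely over the 34 libraries differed from member to member. These correlations of log2 CPM are descriptions, and the libraries share mice and groups. Closest to Rem2 were Necab3 (r = 0.947), Susd4, Dnajc27, Kcnip3 and Kank4 (r between 0.931 and 0.940). Kcnip3 encodes DREAM, a calcium-binding protein that represses transcription and binds potassium channels, and Necab3 encodes a neuronal calcium-binding protein. All 5 also fell in wt, with log2 fold changes from -0.81 for Kank4 to -0.42 for Dnajc27 (adjusted p from 6.03e-07 to 0.000106 by edgeR), and none passed in cKO. Of all tested genes 12.7% were called lower in wt and 0.583% in cKO. The 5 were picked for following Rem2 over these same libraries. Their fall in wt is largely set by that choice and is no separate result. The injured wt-176 library was lowest for both Necab3, at 15.8 CPM, and Rem2. Without it and the injured wt-172 library r was 0.919, and within groups it ran from 0.653 in injured cKO to 0.970 in injured wt.

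Closest to Rrad were genes of vessel wall cells. They were the smooth muscle genes Acta2 (r = 0.939), Myh11 (0.933) and Mylk (0.926), then Cd93 and Igfbp7, which are abundant in endothelium. Within groups r with Acta2 ran from 0.920 to 0.966, and it was 0.928 without the 2 libraries with the most extreme Acta2 levels. The 3 libraries with the least Rrad, naive and injured cKO-163 and naive wt-172, were also the 3 with the least Acta2, 1.22 to 1.36 CPM. The injured wt-175 and cKO-194 libraries, with the most Rrad, had 21.3 and 17.1 CPM of Acta2. Of the 10 pericyte and smooth muscle markers none passed with injury in either genotype and none was at 0 in any library. Their summed level started at 79.8 CPM in naive wt (median 143, highest in wt-175), and ran from 81.1 to 202 CPM in injured wt, 83.6 to 169 in naive cKO and 76.8 to 166 in injured cKO libraries. This sum did not follow Rrad in every library: it was 148 CPM in naive wt-172, and 94.6 CPM in injured wt-176, which had 3.11 CPM of Rrad. The 10 endothelial markers summed to 56.8, 87.5 and 66.2 CPM in naive and injured cKO-163 and naive wt-172. In injured wt-175 and cKO-194 they summed to 261 and 310 CPM. Skeletal and heart muscle markers were far lower, with sums from 2.03 to 7.23 CPM, and Tnnc2 and Myl1 were at 0 in 20 and 21 libraries. The part of vessel cells in the Rrad level was not tested.

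Closest to Gem were Ccl2 (r = 0.819), a chemokine of macrophage recruitment, Gadd45b (0.777), Socs1 (0.775), Gcc1 (0.768) and Bhlhe40 (0.766). Gadd45b, Socs1 and Bhlhe40 are known as stress- and cytokine-inducible genes. None of the 5 passed with injury in either genotype. The naive wt-146 library was highest for both Gem, at 12.1 CPM, and Ccl2, at 11.1 CPM, and the injured cKO-194 library was second for both, at 9.69 and 10.1 CPM. Without these 2 libraries r with Ccl2 was 0.751, and within groups it ran from 0.759 to 0.836. The injured cKO-194 library also had the highest summed level of neutrophil markers, 995 CPM, and its part in the Gem and Rrad levels was not tested.

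**Figure D4:**
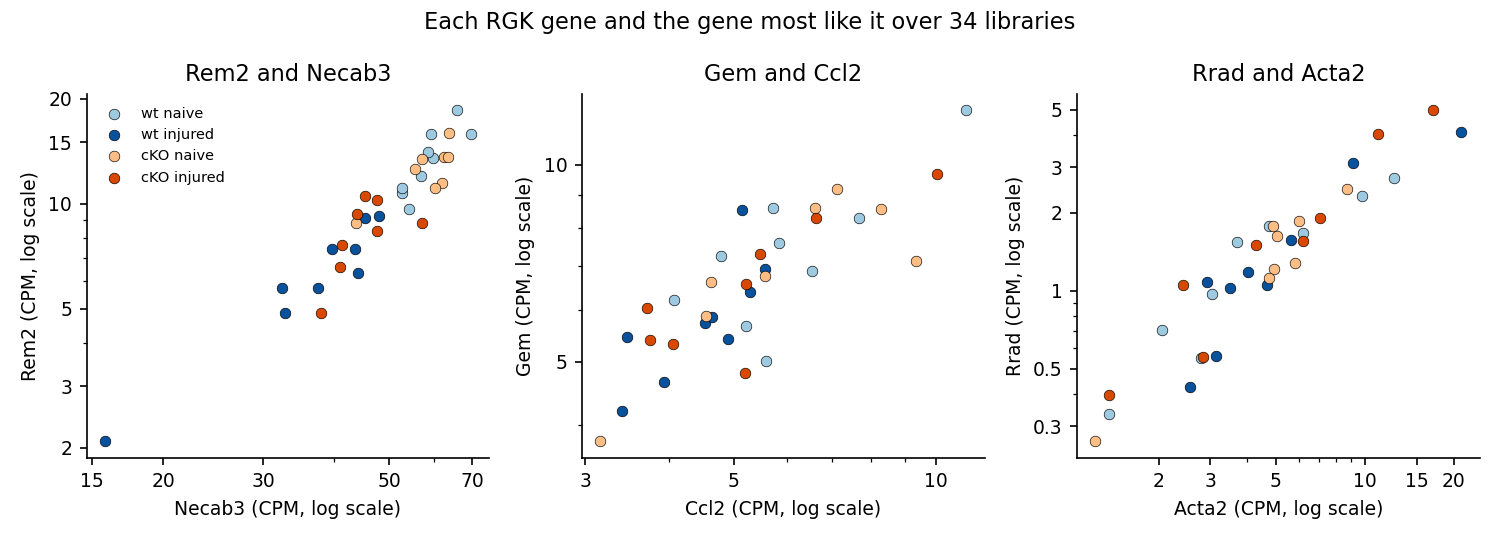
Level of Rem2, Gem and Rrad (y axes, CPM, log scale) against Necab3, Ccl2 and Acta2 (x axes, CPM, log scale) in the 34 libraries, coloured by group. Rem2 and Necab3 (r = 0.947) separate naive from injured libraries in wt, and the sides overlap in cKO. Gem with Ccl2 (r = 0.819) and Rrad with Acta2 (r = 0.939) vary with the groups mixed.

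Of the 15 tested genes of voltage-gated calcium channels, 5 fell and 1 rose in wt, where 12.7% of all genes were called lower and 14.3% higher. The 15 include 3 low-voltage-activated pores, 1 of which fell, that are not among the high-voltage-activated channels RGK proteins act on. Of the high-voltage-activated pores, 2 of 5 tested genes fell and none rose. Cacna1c, the L-type pore CaV1.2, went from 266 ± 25.5 to 205 ± 34.8 CPM (SD, n = 9; log2 fold change -0.38, SE 0.08, adjusted p = 0.000407 by edgeR), lower in 9 of 9 mice. Cacna1e, the R-type pore CaV2.3, went from 51.7 ± 8.32 to 30.4 ± 14.1 CPM (log2 fold change -0.75, adjusted p = 0.0334), a call lost without wt-139, wt-172, wt-175 or wt-176. Cacna1b, the N-type pore CaV2.2 that drives transmitter release from sensory neurons, was at 381 ± 38.1 and 396 ± 47.3 CPM, a log2 fold change of 0.05 that did not pass (SE 0.06, adjusted p = 0.588). Of the low-voltage-activated pores, which lack the beta subunit, Cacna1h (CaV3.2) fell by 0.53 (adjusted p = 0.00162), and the other 2 did not pass.

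Of the beta subunits, the direct partners of RGK proteins, 1 of 4 fell in wt. Cacnb2 was at 5.27 ± 0.51 CPM naive and 4.15 ± 0.97 CPM injured (log2 fold change -0.34, SE 0.11, adjusted p = 0.0248 by edgeR), a call lost without wt-139, wt-155 or wt-175. It was higher in cKO than in wt on the injured side by 0.38 (adjusted p = 0.0316), and its difference of injury effects did not pass (0.44, adjusted p = 0.181). The alpha2delta subunits, which carry channels to the membrane, split. Cacna2d1 rose in wt from 352 ± 63.8 to 727 ± 272 CPM (log2 fold change 1.04, SE 0.15, adjusted p = 3.27e-06), higher in 9 of 9 mice, whereas Cacna2d2 fell by 0.62 (adjusted p = 0.0214), a call lost without wt-176. In cKO Cacna2d1 was at 340 ± 46.8 and 389 ± 101 CPM (log2 fold change 0.20, adjusted p = 0.686), and here the difference of injury effects itself passed, at -0.85 (SE 0.22, adjusted p = 0.0260). In cKO none of the 15 tested channel genes passed with injury, in a comparison that called 3.19% of all genes.

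**Figure D5:**
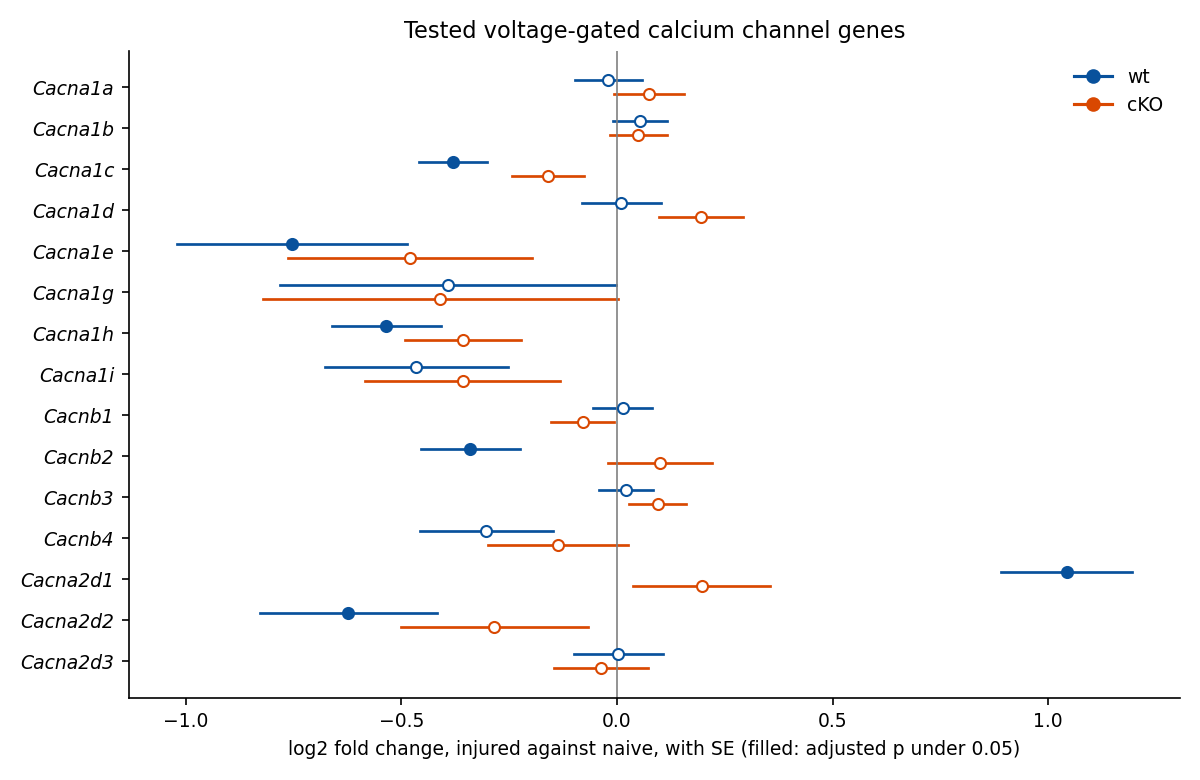
Log2 fold change with injury (x axis) with SE for the 15 tested voltage-gated calcium channel genes (y axis) in wt and cKO; filled points passed an adjusted p of 0.05 in edgeR. In wt 5 genes fell and Cacna2d1 rose (1.04), and no cKO point is filled.

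Of 18 tested genes of other RGK binding partners, 3 rose and 3 fell in wt, a share near the 27.0% of all genes called there, with a list median of 0.07 against 0.02 for all genes. Sfn, the 14-3-3 protein sigma, rose by 0.69 (adjusted p = 1.98e-06 by edgeR), from 5.93 ± 0.58 to 9.60 ± 2.49 CPM, and it was the 1 partner that passed in cKO, rising by 0.55 (adjusted p = 0.000833). Rock2, a cytoskeletal kinase, rose by 0.54 (adjusted p = 0.00132), and Gmip, which binds Gem, by 0.32 (adjusted p = 0.0247). The CaMKII subunit genes Camk2b and Camk2a fell by 0.63 and 0.44 (adjusted p = 8.00e-05 and 0.00221), each in 9 of 9 mice. None of the 18 passed in the difference of injury effects.

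Among the other small GTPases of the Ras family, 8 of 29 tested rose and 5 fell in wt, 27.0% of all genes being called in either direction. Rras2, a close relative of the classical Ras proteins, rose from 7.08 ± 0.80 to 16.6 ± 6.20 CPM in wt (log2 fold change 1.22, SE 0.14, adjusted p = 4.06e-08 by edgeR), in 9 of 9 mice. In cKO it was at 6.96 ± 0.57 and 7.20 ± 0.94 CPM, and the difference of injury effects passed at -1.17 (adjusted p = 0.000616), the 1 family gene for which it did. Rap2b, Ralb and Rit1 rose in wt by 0.59, 0.43 and 0.38 (adjusted p from 3.33e-05 to 0.000103). In cKO, where 3.19% of all genes were called, 2 of the 29 fell and none rose: Diras2 by 0.47 (adjusted p = 5.47e-05) and Rasl11b by 0.53 (adjusted p = 0.0209). Rem2 thus fell in both genotypes, as did Rasl11b.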

How the data were processed

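Whole-gene raw counts for 48795 Ensembl genes in 34 libraries were deposited by the authors. Neurons were enriched on 20% Percoll, and stranded libraries of total RNA were read in pairs, per the labels' protocols. The submitters' processing notes name bcl2fastq 2.20, STAR, HTSeq and the build GRCm38. Not given in the sources used here are the other versions, the annotation release and whether counting used strand. The table had 0 rows without a gene ID and 0 columns of no sample, and 48349 IDs matched a symbol. Coordinates come from GENCODE for GRCm38, promoters from RefSeq for GRCm38.p6. Protein sequences were not analysed here.

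The main test was edgeR's (version 4.0.16, R 4.3.3) robust quasi-likelihood F-test, with groups and sex in a single model of all 34 libraries. Scaling was by TMM, and filterByExpr left 19565 genes. Adjusted p is by Benjamini-Hochberg over all genes tested, with a threshold of 0.05. The procedure was tested on simulated data. Those data had no link between the 2 sides of a mouse, so they cannot show how the fits behave with paired sides. Alternatives were DESeq2 1.42.0, median-ratio scaling, no filter, no sex term, the spacer share (Gm42418, AY036118 and Lars2) as covariate, each sex or spacer set alone, each mouse left out, and the mouse as a block. The 2 sides come from 1 mouse; their deviations from group means correlated with a median of 0.668 over 17 pairs (lowest 0.282). No libraries were merged, since the closest pair within a group had a chi-square per degree of freedom of 9.30. Mouse ratios are log2 ratios of CPM with a small prior. Likeness is Pearson's r of log2 CPM with a prior count of 2, among tested genes averaging at least 5 CPM.

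The members and all gene lists were chosen with earlier results of these data known. Named are the members, Atf3, up to 4 genes a list by p in wt, list genes that pass in the difference, and the 5 genes most like each member. Gmip, Diras2 and Rasl11b, which complete small counts, and Avil, Gm33023, Tnnc2, Myl1 and the sensory neuron markers were named after their values were seen. The values of 1 partner gene are not reported here.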

Additional observations from a re-analysis of the deposited data

Results flagged for a closer look

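In 22 groups of member levels or mouse ratios, the extreme value was compared with the rest of its group by Dixon's ratio, which chance passes in about 1 group in 20. Gem in the naive wt-146 library, at 12.1 CPM, stood above the other 8 naive wt libraries by 0.499 of the group's range. Without wt-146 the wt injury value of Gem was -0.23 (adjusted p = 0.329 in edgeR). Rem1 in the naive cKO-131 library, at 0.463 CPM, stood above the other 7 naive cKO libraries by 0.685 of the range. That library rests on 27 Rem1 counts, and it was also the highest of its group for summed fibroblast (799 CPM), macrophage (45.7 CPM) and red blood cell markers (223 CPM), whose part was not tested.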

How the results depend on the processing

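Values here are log2 fold changes, with the cause of each change not tested. The wt fall of Rem2 passed under all 27 alternatives run. The Rem2 fall in cKO kept its direction in all of them and lost its call with no filter (-0.61, adjusted p = 0.0624), with no sex term (-0.60, adjusted p = 0.0896), in females (-0.66), males (-0.55), low spacer mice (-0.81) and high spacer mice (-0.49). With the mouse as a block, Gem gained a call in wt (-0.33), and no other call of a member changed; the block was used only for the injury effects and their difference.

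Values that did not pass changed sign as follows. In low spacer mice Rrad was -0.46 for injury in cKO, -1.16 and -0.19 between genotypes on the injured and naive side and -0.97 for the difference, Gem -0.0095 between genotypes on the injured side, and Rem2 0.18 on the naive side. In high spacer mice Rrad was -0.10 for injury in wt. In males Gem was 0.11 for injury in cKO and 0.040 between genotypes on the naive side.

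Leaving out 1 mouse at a time, Rem2 ran from -1.15 to -0.98 for injury in wt and from -0.66 to -0.54 in cKO, where 7 of 17 such fits lost the call. Between genotypes on the injured side Rrad ran from -0.17 to 0.71, negative only without cKO-194. On the naive side Gem ran from -0.15 to 0.024, positive without wt-146 or cKO-163, and Rrad from -0.10 to 0.24, negative without cKO-131, cKO-194, wt-139 or wt-172. The difference of injury effects of Rrad ran from -0.064 to 0.53, negative only without cKO-194. Under all the alternatives, the wt injury values of the genes most like Rem2 were also followed. So were those of Cacna1b and of the channel, partner and Ras family genes named by p that passed in wt. Rem1 with DESeq2, set against the fit with no filter, was added for the 5 comparisons. Of these values, 517 stayed called or stayed not called, 28 lost a call, and none changed sign.

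Depth limits Rem1 most, with 7 of 34 libraries at 3 counts or fewer, and then Rrad. Fits of 1 sex or spacer set have few mice, so a lost call there does not show a smaller effect. Intervals of the main fit rest on the spread between libraries of a group, with no link between the 2 sides of a mouse. Those of the block fit rest on how the difference between the sides varied among mice.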
